A study of Homo sapiens with 9 samples.

Results

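Complex I subunits encoded in the nucleus were examined in U251 cells, a human glioma line (labelled U251MG), across 3 groups of 3 cultures each. The list held 34 subunit genes. A gene counted as measured if the array carried a probe set (a group of probes for one transcript) annotated with that gene symbol alone. This left 28 of the 34 genes, among 11963 genes and 22215 probe sets on the array. NDUFC2, NDUFS5 and NDUFS8 shared their probe sets with other symbols, and NDUFA4, NDUFB9 and NDUFV3 had no named probe set, so these 6 were not analysed here. Where a gene had several probe sets, the one with the highest mean over the 9 arrays stood for it. The sample labels distinguish cultures that received Oligofectamine with an siRNA that targets the zinc finger factor WT1, cultures that received Oligofectamine with a scrambled siRNA, and cultures that received Oligofectamine alone (the reagent group). Both siRNAs were used at 100 nM, and all 3 groups were exposed to the transfection reagent. Each group has a replicate numbered 1, 2 and 3. The groups were compared within these numbers. A p-value therefore weighs a group difference against the spread left between cultures, which may be technical.

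Complex I is the entry point of electrons into the mitochondrial respiratory chain. Its peripheral arm, in the matrix, holds the N module, which oxidises NADH and passes the electrons along iron-sulfur clusters, and the Q module, which hands them to ubiquinone. Its membrane arm pumps protons, and is described by a proximal part next to the Q module and a distal part. Core subunits carry the cofactors and the pumping machinery, while accessory subunits surround them and are needed for assembly or stability. The pumping core subunits are encoded by mitochondrial DNA and are not among the genes described here. Of the 28 measured genes, 8 belong to the N module, 4 to the Q module, 6 to the proximal membrane arm and 9 to the distal membrane arm, and the last, NDUFAB1, is the mitochondrial acyl carrier protein. By another division, 5 were core and 23 were accessory subunits.

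The values are log2 expression after RMA, so each unit is a doubling of signal. WT1 itself was lower in the cultures given its siRNA, at 4.76, 5.09 and 4.82, against 5.59, 5.89 and 5.41 with scrambled siRNA and 6.05, 6.58 and 5.89 with reagent (the probe set with the higher mean of its 2). The change was -0.74 against scrambled siRNA (limma adjusted p = 0.00336), and from reagent to WT1 siRNA it was -1.29 (adjusted p = 0.000619). In limma without a term for the replicate number these calls were lost (adjusted p = 0.672 and 0.394). The probe set was dim, brighter than 18.4% to 51.8% of all probe sets depending on the array. WT1 was also lower with scrambled siRNA than with reagent (a difference of -0.55, adjusted p = 0.0164). The other WT1 probe set passed in neither comparison of the WT1 siRNA (-0.18, adjusted p = 0.42, and -0.15, adjusted p = 0.516). Of the glioma markers, VIM and CD44 had means of 13.7 and 13.1, NES, CLU and SLC1A3 of 9.18, 8.82 and 8.27, GFAP ranged from 5.36 to 9.25 between arrays and S100B from 4.47 to 5.69. The epithelial markers EPCAM, CDH1 and KRT19 had means of 4.29, 4.37 and 4.38. The endothelial markers CDH5 and PECAM1 had means of 4.35 and 5.7, the leukocyte markers PTPRC and CD3E of 4.56 and 6.35, and the neuronal markers STMN2 and SYN1 of 4.5 and 5.23.

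The transcripts of NDUFA1 and NDUFB5, accessory subunits of the proximal and distal membrane arm, were lower after WT1 siRNA than in both control groups. The other 26 measured subunits passed the test in neither comparison. Against scrambled siRNA, 2 of 28 subunits were called at an adjusted p under 0.05 (7.14%), both lower, beside 3.7% of all genes in either direction and 2.32% lower. Against reagent the same count was 2 of 28, both lower, beside 1.4% of all genes in either direction and 1.02% lower. As these are bulk cultures, fewer cells that express a gene and less RNA per cell cannot be told apart. The labels give a single WT1 siRNA group, so the loss of WT1 and other effects of that siRNA cannot be told apart. The calls depend on the term for the replicate number. Without that term 0 of 28 subunits were called in limma in either comparison, beside 0.0334% and 0% of all genes, and 4 and 2 subunits had an unadjusted p under 0.05, beside 4.12% and 3.11% of all genes.

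The subunits as a group lay slightly lower after WT1 siRNA than with scrambled siRNA. The median change over the 28 subunits was -0.11, beside -0.0015 over all genes, and the medians within replicate numbers 1, 2 and 3 were -0.14, -0.11 and -0.10. The fitted change was below 0 for 27 of the 28 subunits, beside 50.6% of all genes. In 15 subunits the WT1 siRNA array was the lower one in all 3 numbers (53.6%, beside 20.1% of all genes), and in 0 it was the higher one in all 3 (beside 16.4%). In 7 subunits every WT1 siRNA array lay below every scrambled array (25%, beside 3.8% of all genes), namely NDUFA1, NDUFC1, NDUFV2, NDUFB2, NDUFS1, NDUFB1 and NDUFA10. In 0 subunits did every WT1 siRNA array lie above (beside 3.16%). An unadjusted p under 0.05 was found for 9 subunits (32.1%, beside 17.7%). The subunit probe sets were brighter than 73.1% (NDUFA7) to 98.1% (NDUFB4) of all probe sets, at the lowest and highest array. The shares over all genes include dim genes, and shares over genes of like brightness were not computed. Most single changes were small, and of the 26 subunits that did not pass, the changes ran from -0.23 to 0.06 with 95% confidence intervals between -0.38 (NDUFC1) and 0.25 (NDUFA5).

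Against reagent the group median was -0.06, beside 0.010 over all genes, with -0.03, -0.11 and -0.02 within the 3 numbers. It was -0.024 without the WT1 siRNA array of number 2, -0.034 without the reagent array of number 2, and -0.014 or -0.09 without all arrays of number 2 or number 1. Here 23 subunits had a fitted change below 0 (beside 46.1% of all genes), 9 were lower in all 3 numbers (beside 17.4%) and 2, NDUFA3 and NDUFA13, were higher in all 3 (beside 17%). The groups did not overlap, with WT1 siRNA lower, for NDUFA1, NDUFA7 and NDUFS1 (10.7%, beside 3.19% of all genes), and with WT1 siRNA higher for 0 (beside 2.68%). An unadjusted p under 0.05 was found for NDUFA1, NDUFA7 and NDUFB5 (10.7%, beside 15.9%). The 26 subunits that did not pass had changes from -0.18 to 0.16, with confidence intervals between -0.33 (NDUFA7) and 0.32 (NDUFA3). Both comparisons use the same 3 WT1 siRNA arrays, so their values are not independent. Without NDUFA1 and NDUFB5 the median over the other 26 subunits was -0.10 against scrambled siRNA, with 25 below 0, and -0.06 against reagent, with 21 below 0.

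**Figure D1:**
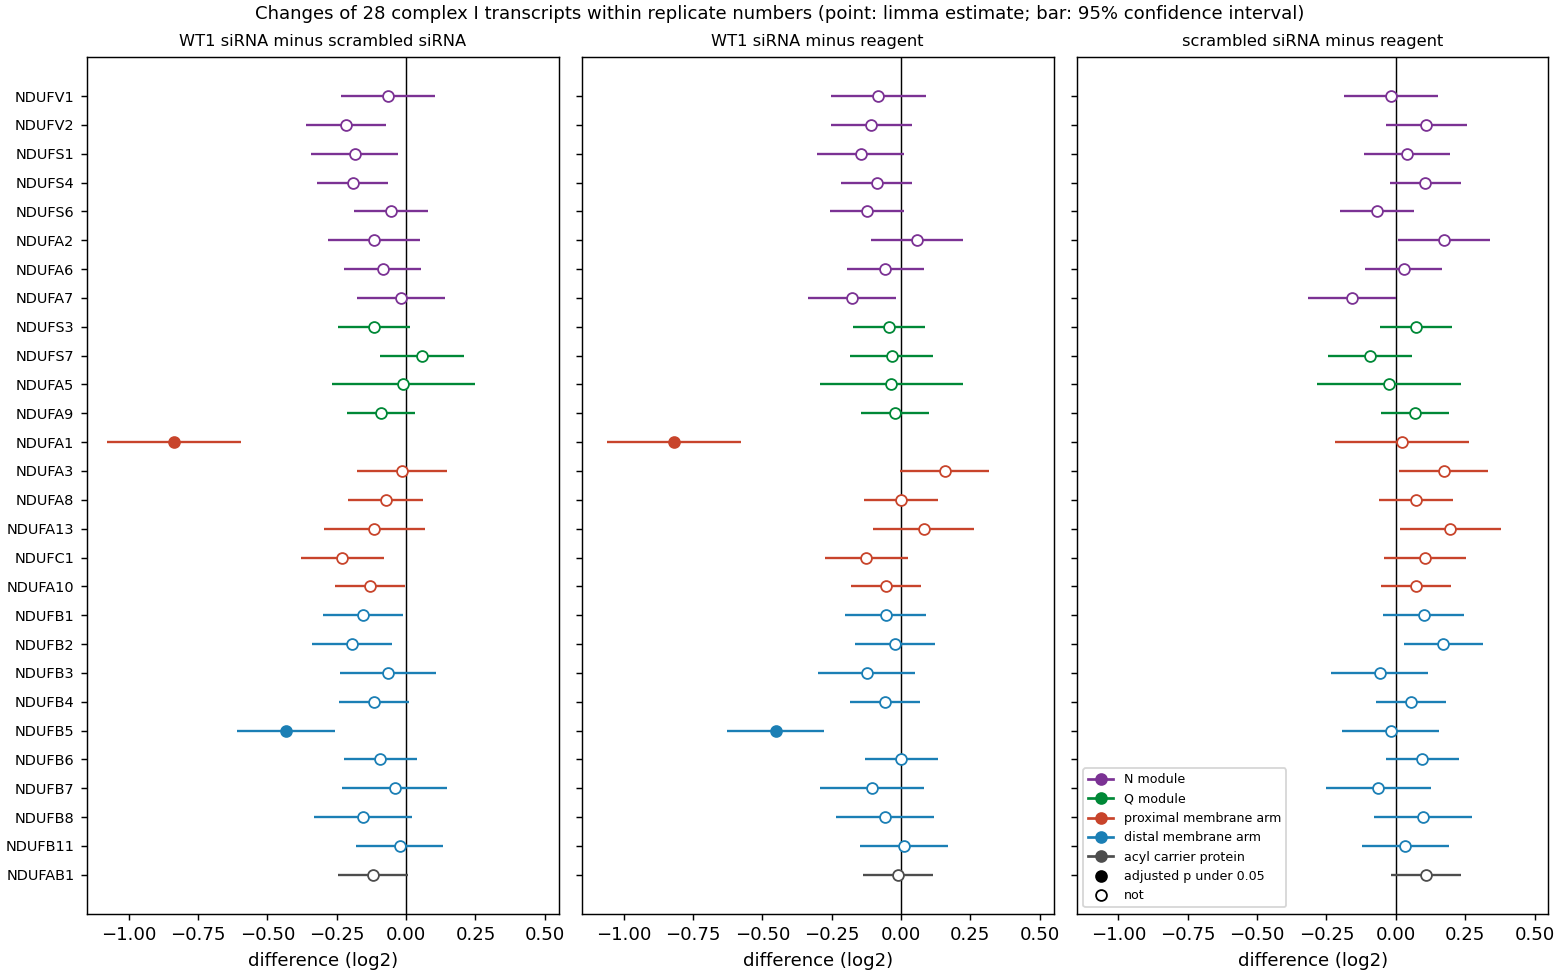
Change of each of the 28 measured subunits on the log2 scale in the 3 comparisons, ordered and coloured by module, with the limma estimate as a point and its 95% confidence interval as a bar. Filled points have an adjusted p under 0.05. NDUFA1 and NDUFB5 stand to the left in both comparisons of WT1 siRNA and lie near 0 in the comparison of scrambled siRNA with reagent.

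In the N module, 0 of 8 subunits passed in any group comparison, beside 3.7%, 1.4% and 1.21% of all genes in the 3 comparisons. These shares stand for WT1 siRNA against scrambled siRNA, WT1 siRNA against reagent and scrambled siRNA against reagent. With so few subunits a count of 0 lies near them. All 8 had a fitted change below 0 against scrambled siRNA (median -0.10), and 7 of 8 against reagent (median -0.10). The largest change against scrambled siRNA was that of NDUFV2, a core subunit with an iron-sulfur cluster. Its 3 WT1 siRNA arrays stood at 10.53, 10.59 and 10.32, its scrambled arrays at 10.70, 10.76 and 10.62 and its reagent arrays at 10.51, 10.68 and 10.56. The WT1 siRNA arrays lay below all scrambled arrays and overlapped the reagent arrays. The difference from scrambled siRNA was -0.22 (limma adjusted p = 0.12) and that from reagent -0.11 (adjusted p = 0.489).

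NDUFS1, the largest core subunit and also a carrier of iron-sulfur clusters, read 9.27, 9.30 and 9.11 after WT1 siRNA, 9.31, 9.56 and 9.36 with scrambled siRNA and 9.31, 9.41 and 9.39 with reagent. It was the lowest of the 3 groups in every number, though its highest WT1 siRNA array lay close to the lowest control arrays. The changes were -0.19 (adjusted p = 0.212) and -0.15 (adjusted p = 0.365). NDUFS4, an accessory subunit in which mutations cause Leigh syndrome, differed by -0.19 from scrambled siRNA (adjusted p = 0.115) and by -0.09 from reagent (adjusted p = 0.524).

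NDUFA7, an accessory subunit, had the smallest p in the comparison with reagent after NDUFA1 and NDUFB5. Its WT1 siRNA arrays read 8.53, 8.20 and 8.52, its scrambled arrays 8.56, 8.31 and 8.44, and its reagent arrays 8.58, 8.54 and 8.66. Every WT1 siRNA array lay below every reagent array, though the nearest arrays lay close together, and the scrambled arrays spread over both groups. The difference from reagent was -0.18 ± 0.0703 (SE; adjusted p = 0.276), and that from scrambled siRNA was -0.02 (adjusted p = 0.941). NDUFV1, the core subunit that binds NADH and flavin, differed by -0.06 and -0.08 (adjusted p = 0.761 and 0.672). NDUFS6, NDUFA2 and NDUFA6 differed from scrambled siRNA by -0.05, -0.12 and -0.08, with adjusted p from 0.502 to 0.741.

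In the Q module, 0 of 4 subunits passed in any group comparison, beside 3.7%, 1.4% and 1.21% of all genes in the 3 comparisons. NDUFS7, the core subunit with the iron-sulfur cluster next to the ubiquinone site, was the one measured subunit whose fitted change against scrambled siRNA was above 0 (0.06, 95% confidence interval -0.09 to 0.21). Against reagent it was -0.03. NDUFS3, another core subunit, differed by -0.12 and -0.04, and NDUFA9, an accessory subunit with a dehydrogenase-like fold, by -0.09 and -0.02. NDUFA5 had the widest confidence interval of the 28 subunits. Its WT1 siRNA arrays read 9.88, 9.90 and 9.50, its scrambled arrays 9.52, 9.91 and 9.88 and its reagent arrays 9.63, 9.93 and 9.82. WT1 siRNA was above both controls in number 1 and below both in number 3, and the fitted change was -0.0092 against scrambled siRNA (interval -0.27 to 0.25).

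In the proximal membrane arm, 1 of 6 subunits passed in both comparisons of WT1 siRNA, which called 3.7% and 1.4% of all genes. This was NDUFA1, a small subunit with a single membrane span that is encoded on the X chromosome and is required to assemble the complex. Its WT1 siRNA arrays read 10.69, 10.32 and 10.86, its scrambled arrays 11.58, 11.42 and 11.38 and its reagent arrays 11.52, 11.44 and 11.36. All 3 WT1 siRNA arrays lay below all 6 control arrays, and the 2 control groups overlapped. The group means were 10.62 ± 0.277 (SD, n = 3), 11.46 ± 0.104 and 11.44 ± 0.0771, so the spread within the WT1 siRNA group was wider than within the controls.

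NDUFA1 fell by 0.84 on the log2 scale against scrambled siRNA (SE 0.108, 95% confidence interval -1.08 to -0.60), which left 56.0% of the scrambled signal, at an adjusted p = 0.00591 in limma. Against reagent it fell by 0.82 (interval -1.06 to -0.57), which left 56.8%, at an adjusted p = 0.0104. Within numbers 1, 2 and 3 the difference was -0.89, -1.10 and -0.52 against scrambled siRNA and -0.83, -1.12 and -0.50 against reagent. Number 2 showed the greatest difference and number 3 the smallest in both. Among all 22215 probe sets the fall ranked 19 against scrambled siRNA and 10 against reagent. Scrambled siRNA and reagent differed by 0.02 (interval -0.22 to 0.26, adjusted p = 0.974). Of the variation of NDUFA1 over the 9 arrays, 88.0% lay between groups and 4.12% between replicate numbers.

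The call for NDUFA1 was lost in some settings while the direction was kept. Without the term for the replicate number the adjusted p was 0.221 against scrambled siRNA and 0.394 against reagent. Without the scrambled array of number 2 the change against scrambled siRNA was -0.78 (adjusted p = 0.0568), and without the reagent array of number 2 the change against reagent was -0.73 (adjusted p = 0.0942). With only the WT1 siRNA and reagent arrays in the fit the adjusted p against reagent was 0.0623. Without all 3 arrays of number 2 the changes were -0.71 (adjusted p = 0.109) and -0.66 (adjusted p = 0.206).

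**Figure D2:**
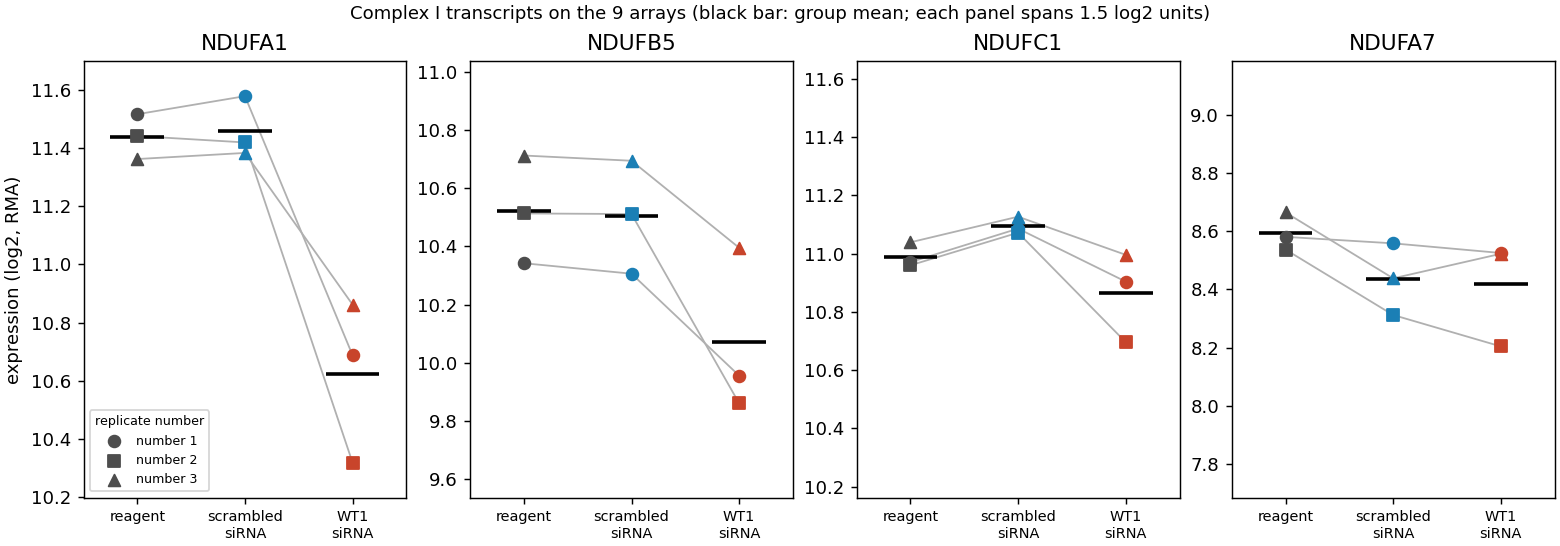
Log2 expression on the 9 arrays of the subunits with the smallest p after WT1 siRNA, by group; a point is an array, its shape gives the replicate number, thin lines join arrays of one number and black bars are group means (n = 3). For NDUFA1 all 3 WT1 siRNA arrays lie below the 6 control arrays, while for NDUFB5 the WT1 siRNA array of number 3, at 10.40, lies above the controls of number 1.

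The other 5 proximal subunits passed in neither comparison. NDUFC1, a small single-span subunit, had the smallest p of the 26 against scrambled siRNA. It read 10.90, 10.70 and 11.00 after WT1 siRNA, 11.09, 11.07 and 11.13 with scrambled siRNA and 10.97, 10.96 and 11.04 with reagent. The scrambled arrays lay above all WT1 siRNA and all reagent arrays, while WT1 siRNA and reagent overlapped. The change was -0.23 ± 0.0662 (SE) against scrambled siRNA (adjusted p = 0.106), -0.12 against reagent (adjusted p = 0.419) and 0.11 for scrambled siRNA against reagent (adjusted p = 0.605). It passed (adjusted p = 0.0231) with the trended, robust form of limma's variance estimate.

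NDUFA10, which has a nucleoside kinase fold, differed by -0.13 from scrambled siRNA and -0.06 from reagent. NDUFA8, a cysteine-rich subunit on the intermembrane side, differed by -0.07 from scrambled siRNA, and its confidence interval against reagent ran from -0.13 to 0.13. NDUFA13, also known as GRIM-19, read 10.80, 10.39 and 10.73 after WT1 siRNA, 11.15, 10.39 and 10.71 with scrambled siRNA and 10.75, 10.31 and 10.59 with reagent. Its arrays grouped by number, with number 2 lowest in every group. It differed by -0.11 from scrambled siRNA (adjusted p = 0.56) and by 0.08 from reagent (adjusted p = 0.689). NDUFA3 differed by -0.01 and 0.16 (adjusted p = 0.958 and 0.342).

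NDUFA1 and NDUFA13 are shown with the bases just before their transcription start. Both belong to the proximal arm and hold the same ETS and SP1 letters. NDUFA1 passed in both comparisons of WT1 siRNA and NDUFA13 in none, and the pair was picked with these outcomes known. NDUFS1, NDUFS3 and NDUFB7 also hold both kinds of letters in the wider windows searched below. Any part of the letters in the changes was not tested. The sequences are from RefSeq (build GRCh38.p14, plus strand), with matches to the ETS family letters CCGGAAG and the SP1 letters GGGCGG, on either strand, in capitals. The NDUFA1 stretch is chrX:119871734-119871831, which is the whole interval of 98 bases between its start and that of RNF113A on the opposite strand, and the NDUFA13 stretch is chr19:19516125-19516224.
NDUFA1: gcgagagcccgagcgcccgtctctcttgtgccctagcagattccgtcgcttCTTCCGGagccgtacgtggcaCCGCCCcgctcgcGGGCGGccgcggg
NDUFA13: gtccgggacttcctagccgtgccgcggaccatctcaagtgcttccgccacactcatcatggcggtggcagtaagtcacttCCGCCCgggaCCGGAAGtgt
In NDUFA1 the ETS letters stand on the minus strand from -47 to -41 and SP1 letters at -26 to -21 and -13 to -8, counted from the start. In NDUFA13 the SP1 letters stand at -20 to -15 and the ETS letters at -10 to -4.

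A search of the RefSeq promoter windows, from 250 bases before to 50 after the start, covered 27 of the 28 measured subunits; NDUFB5 was not matched. Both strands were searched, and shares are set beside all 15843 windows of protein-coding genes. SP1 letters were found in 18 subunits (66.7%, beside 58.5% of all windows), with an overlap with ETS letters in NDUFS3. ETS letters were found in 5 (18.5%, beside 14.2%) and a match to the NRF1 motif in 4 (14.8%, beside 8.58%). The YY1 letters AAGATGGCG were found in 5 subunits (18.5%, beside 2.74%), NDUFS4, NDUFA6, NDUFA7, NDUFS7 and NDUFA9, in each on the plus strand between 11 and 34 bases after the start. The WT1 letters GCGTGGG were found in NDUFB2 alone (3.7%, beside 8.36%), at -162 to -156, and the letters GCGGGGGCG, shared by EGR factors and WT1, in 0 subunits (beside 6.72%). A match describes letters and shows no binding.

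RNF113A, which runs from the other side of the same interval as NDUFA1, was measured by 1 probe set. It read 8.05, 8.23 and 8.14 after WT1 siRNA, 8.14, 8.35 and 8.21 with scrambled siRNA and 8.08, 8.30 and 8.11 with reagent. The groups overlapped, and the changes were -0.09 (adjusted p = 0.473) and -0.02 (adjusted p = 0.888). AKAP14, the neighbour on the other side, had no probe set with its symbol alone.

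In the distal membrane arm, 1 of 9 subunits passed in both comparisons of WT1 siRNA, which called 3.7% and 1.4% of all genes. NDUFB5, an accessory subunit with a single membrane span, read 9.96, 9.86 and 10.40 after WT1 siRNA. It read 10.31, 10.51 and 10.69 with scrambled siRNA and 10.34, 10.51 and 10.71 with reagent. Within each number WT1 siRNA was the lowest of the 3 groups, but over all arrays the groups overlapped, because number 3 was the highest in every group. NDUFB5 fell by 0.43 against scrambled siRNA (SE 0.078, interval -0.61 to -0.26, adjusted p = 0.0215), to 74.1% of the scrambled signal. It fell by 0.45 against reagent (interval -0.63 to -0.28, adjusted p = 0.0287), to 73.1%. The differences within numbers were -0.35, -0.65 and -0.30 against scrambled siRNA and -0.39, -0.65 and -0.32 against reagent. Scrambled siRNA and reagent differed by -0.02 (interval -0.19 to 0.16).

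NDUFB5 kept its direction in every setting tried, and its call was lost in more settings than that of NDUFA1. It was lost without the term for the replicate number (adjusted p = 1 in both comparisons). Against scrambled siRNA it was also lost without the scrambled array of number 1, 2 or 3 (adjusted p = 0.0736, 0.148 and 0.0646) and without the WT1 siRNA array of number 2 (-0.33, adjusted p = 0.078). It was lost as well without all arrays of number 1 or number 2 (0.0642 and 0.255) and with only the 2 compared groups in the fit (0.0528). Against reagent it was lost without the reagent array of number 1, 2 or 3 (adjusted p = 0.0957, 0.188 and 0.0811), without the scrambled array of number 1, 2 or 3 (0.0526, 0.0544 and 0.0547) and without the WT1 siRNA array of number 2 (0.111). It was lost as well without all arrays of number 1, 2 or 3 (0.0745, 0.342 and 0.0731), with only the 2 compared groups in the fit (0.12) and with the number as a random effect (0.0677). USP13, a deubiquitinase gene next to NDUFB5 in the RefSeq table of GRCh38.p14, differed by -0.08 (adjusted p = 0.688) and -0.09 (adjusted p = 0.621); MRPL47, on the other side, had no probe set with its symbol alone.

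The other 8 distal subunits passed in neither comparison, and all 8 had a fitted change below 0 against scrambled siRNA. NDUFB2 read 10.69, 10.51 and 10.67 after WT1 siRNA, 11.01, 10.71 and 10.73 with scrambled siRNA and 10.75, 10.57 and 10.62 with reagent. Its scrambled arrays lay above all WT1 siRNA arrays, while WT1 siRNA and reagent overlapped. The changes were -0.19 (adjusted p = 0.156) and -0.02 (adjusted p = 0.914). NDUFB1 and NDUFB8 differed from scrambled siRNA by -0.16 each (adjusted p = 0.274 and 0.377). NDUFB3, NDUFB4, NDUFB6, NDUFB7 and NDUFB11, the last encoded on the X chromosome, differed by -0.07, -0.11, -0.09, -0.04 and -0.02. NDUFAB1, which also serves mitochondrial fatty acid synthesis, differed by -0.12 from scrambled siRNA (adjusted p = 0.335) and by -0.0098 from reagent (adjusted p = 0.96).

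A second look at the same genes was possible through 7 further probe sets, of NDUFA2, NDUFA5, NDUFA6, NDUFB2, NDUFB7 and NDUFB8. None of the 7 passed in any group comparison, beside 3.27%, 1.25% and 1.09% of all probe sets in the 3 comparisons. The changes of the 7 against scrambled siRNA ran from -0.15 to 0.12. For NDUFB2 the further probe set gave -0.15 beside -0.19, and for NDUFB8 the 2 further sets gave -0.13 and 0.08 beside -0.16. For NDUFB7 it gave 0.12 (adjusted p = 0.423) beside -0.04, with every WT1 siRNA array above every scrambled array. The further sets of NDUFA2, NDUFA5 and NDUFA6 gave -0.03, -0.0078 and -0.02, beside -0.12, -0.0092 and -0.08. The sets of NDUFA2, NDUFA5 and NDUFB7 had means of 4.67, 4.14 and 4.45 over the 9 arrays, and those of NDUFA6, NDUFB2 and NDUFB8 had means of 6.31 or more. NDUFA1 and NDUFB5 had 1 probe set each, so their changes have no such check on the array.

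Scrambled siRNA against reagent asks what an siRNA with no intended target did to these transcripts. In limma 0 of 28 subunits passed, beside 1.21% of all genes, and 4 had an unadjusted p under 0.05 (14.3%, beside 13.1%): NDUFA2, NDUFA3, NDUFA13 and NDUFB2. Without the term for the replicate number 0 passed (beside 0.00836% of all genes) and 0 had an unadjusted p under 0.05 (beside 2.44%). The subunits lay slightly higher with scrambled siRNA, with a median of 0.07 beside 0.013 over all genes and 0.08, 0.04 and 0.06 within the 3 numbers. The fitted change was below 0 for 8 subunits, beside 44.3% of all genes. In 15 subunits the scrambled array was the higher one in all 3 numbers (53.6%, beside 21.7% of all genes), and in 4 it was the lower one (beside 17.4%). NDUFC1 was the one subunit whose groups did not overlap with scrambled siRNA higher (3.57%, beside 2.97%), and 0 had it lower (beside 2.72%). The scrambled arrays also enter the comparison with WT1 siRNA with the opposite sign, so the median of -0.11 there and of 0.07 here are not independent.

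The single changes were small. NDUFB2 had the smallest p, with 0.17 ± 0.0641 (SE, interval 0.03 to 0.32, adjusted p = 0.314) and differences of 0.26, 0.14 and 0.12 within the numbers. NDUFA13 differed by 0.20 (interval 0.02 to 0.38, adjusted p = 0.374), of which number 1 gave 0.40 and numbers 2 and 3 gave 0.08 and 0.11. NDUFA3, a proximal arm subunit, read 9.64, 9.28 and 9.88 with scrambled siRNA, 9.29, 9.19 and 9.80 with reagent and 9.47, 9.29 and 9.99 after WT1 siRNA. Its scrambled array was the higher of the 2 in each number, by 0.35, 0.09 and 0.07, and the change was 0.17 (adjusted p = 0.384). NDUFA7 lay at the other end with -0.16 (adjusted p = 0.42). Over all 28 subunits the intervals ran from -0.32 (NDUFA7) to 0.38 (NDUFA13).

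The replicate numbers separated the arrays more than the groups did, in these genes and over the array as a whole. Of the variation of the 28 subunits, 47.6% lay between numbers and 39.3% between groups, and over all probe sets these shares were 71.4% and 15.6%. The shares pool the genes, so genes with a wide spread weigh most. NDUFA1 and NDUFB5 had the widest ranges over the arrays (1.26 and 0.851), with 88.0% and 56.1% of their variation between groups. Shares without this pair were not computed, so the contrast with the whole array may rest on them. Number 1 differed from numbers 2 and 3 in 7 of 28 subunits (25%, beside 43.2% of all genes). NDUFA10, NDUFA13, NDUFB2, NDUFB4 and NDUFB7 were higher in number 1 (beside 18.5% of all genes), and NDUFB5 and NDUFS4 were lower (beside 24.7%). Number 2 differed from number 3 in 10 subunits (35.7%, beside 23.2% of all genes), and all 10 were lower in number 2, beside 11% of all genes lower and 12.2% higher. These counts depended on single arrays. The count of 7 became 2 without the scrambled array of number 1, 3 without the reagent array of number 1 or the scrambled array of number 2, and 4 without the scrambled array of number 3. The count of 10 became 3 without the WT1 siRNA or scrambled array of number 2 or the WT1 siRNA array of number 3, the last with 2 of the 3 lower. It became 5 without the reagent array of number 2 or the scrambled or reagent array of number 3.

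NDUFA3 showed the greatest of these differences, with -0.64 between numbers 2 and 3 (limma adjusted p = 0.000384), and 88.0% of its variation lay between numbers. NDUFA13 was 0.38 higher in number 1 than in the other numbers (adjusted p = 0.00213) and differed by -0.31 between numbers 2 and 3 (adjusted p = 0.0226). NDUFS7, which moved little between groups, differed by -0.34 between numbers 2 and 3 (adjusted p = 0.00696). The sources used here do not give what the numbers stand for. The difference between the 3' and 5' control probe sets of actin, a sign of RNA length, moved with them, at 0.05 to 0.09 in number 1, 0.55 to 0.68 in number 2 and 0.26 to 0.51 in number 3. Over groups it was 0.297 after WT1 siRNA, 0.396 with scrambled siRNA and 0.403 with reagent, and in number 3 the WT1 siRNA array read 0.26 against 0.46 and 0.505. Its part in these results, and in the comparisons of WT1 siRNA, was not tested. For GAPDH the same difference lay between -0.0249 and 0.184, with group means of 0.0945 after WT1 siRNA, 0.0836 with scrambled siRNA and 0.0771 with reagent.

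**Figure D3:**
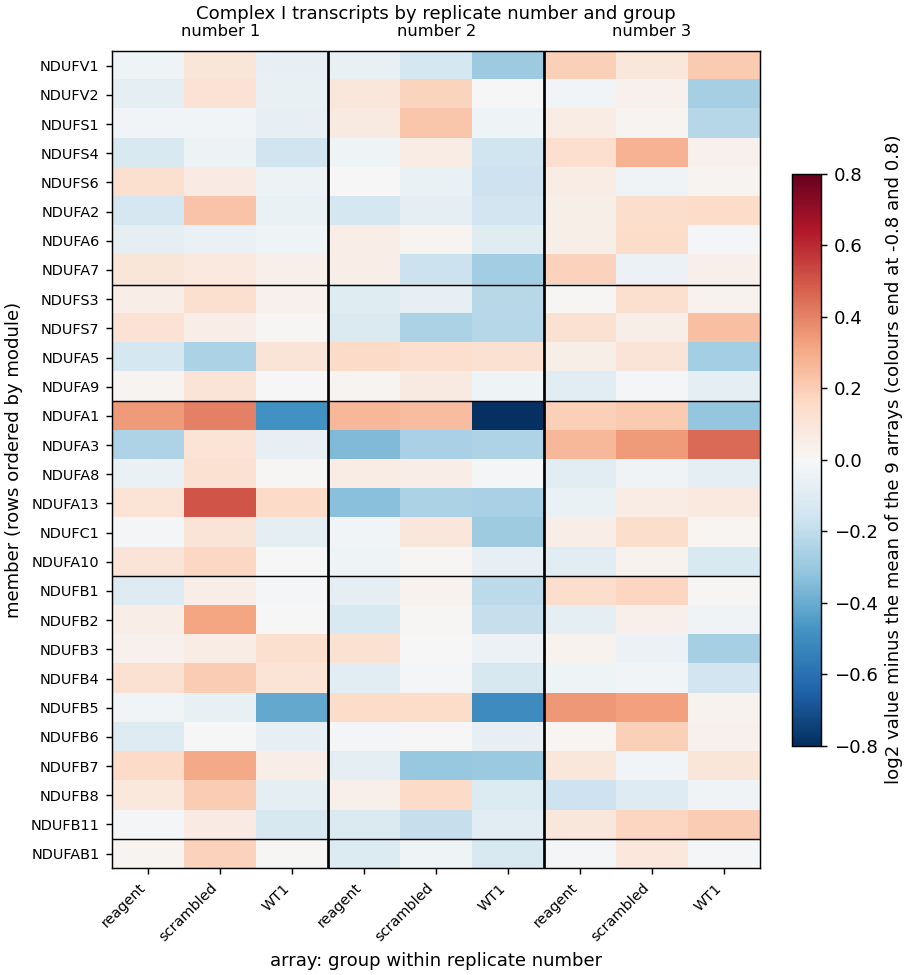
Log2 value of each of the 28 subunits minus its mean over the 9 arrays, with arrays ordered by replicate number and then group, and rows ordered by module. The dark cells of NDUFA1 in the WT1 siRNA column recur in all 3 numbers, while NDUFA3 and NDUFA13 change between the blocks of numbers.

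The other proteins that build or accompany the complex were read from lists. These held assembly factors, subunits of complexes II to V, large subunit proteins of the mitochondrial ribosome and regulators of mitochondrial biogenesis. The list of complexes II to V also held CYCS, the electron carrier cytochrome c, which is not a subunit. Of 14 assembly factors 10 were measured, with a median of -0.06 against scrambled siRNA, -0.0074 against reagent and 0.06 for scrambled siRNA against reagent. NUBPL, which helps to insert iron-sulfur clusters into complex I, fell by 0.36 against scrambled siRNA (adjusted p = 0.0189, lower in 3 of 3 numbers), which is 1 of 10 lower beside 2.32% of all genes. Against reagent its change was -0.31 (adjusted p = 0.0505). The other 9 passed in neither comparison. NDUFAF1, an assembly factor of the membrane arm, differed by -0.10 and -0.05 (adjusted p = 0.527 and 0.78).

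Of 39 genes of complexes II to V 35 were measured, and 0 passed in any group comparison. Their median against scrambled siRNA was -0.09, with 32 of 35 below 0 (beside 50.6% of all genes). The smallest p was that of ATP5F1D, a subunit of the ATP synthase (-0.27, adjusted p = 0.0688), followed by UQCR11, a small subunit of complex III (-0.23, adjusted p = 0.0762). Unadjusted, 9 of the 35 had a p under 0.05 (beside 17.7% of all genes), which is 1 gene higher, ATP5MC2 (0.19, adjusted p = 0.143), and the others lower. Against reagent the median was -0.02 with 24 of 35 below 0 (beside 46.1%), and for scrambled siRNA against reagent it was 0.06 with 4 of 35 below 0 (beside 44.3%). The complex I median of -0.11 and this median of -0.09 were not tested against each other.

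The large subunit of the mitochondrial ribosome, which makes the mitochondrially encoded subunits, had 31 measured genes with a median of -0.09 against scrambled siRNA. MRPL33, MRPL40 and MRPL48 fell by 0.35, 0.32 and 0.29 (adjusted p = 0.0212, 0.0351 and 0.0238), each in 3 of 3 numbers, which is 3 of 31 lower beside 2.32% of all genes. These calls and that of NUBPL were not followed through the alternative settings. In limma without the term for the replicate number, 0.0334% of all genes were called against scrambled siRNA. Against scrambled siRNA 21 of the 31 had a change below 0 (beside 50.6%) and 11 an unadjusted p under 0.05 (beside 17.7%). Of those 11, MRPL2 was higher (0.27, adjusted p = 0.195) and the others were lower. Against reagent the median was -0.10, with 23 of 31 below 0 (beside 46.1%). There 0 of 31 passed (beside 1.4%) and 7 had an unadjusted p under 0.05 (beside 15.9%). Among the regulators of mitochondrial biogenesis 11 of 12 were measured, including NRF1, GABPA, TFAM and YY1. The medians of the 11 were -0.01, -0.04 and -0.03 in the 3 comparisons, and 0 passed, beside 3.7%, 1.4% and 1.21% of all genes. TFAM, which packages mitochondrial DNA and starts its transcription, differed by 0.13 from scrambled siRNA and by 0.07 from reagent.

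**Figure D4:**
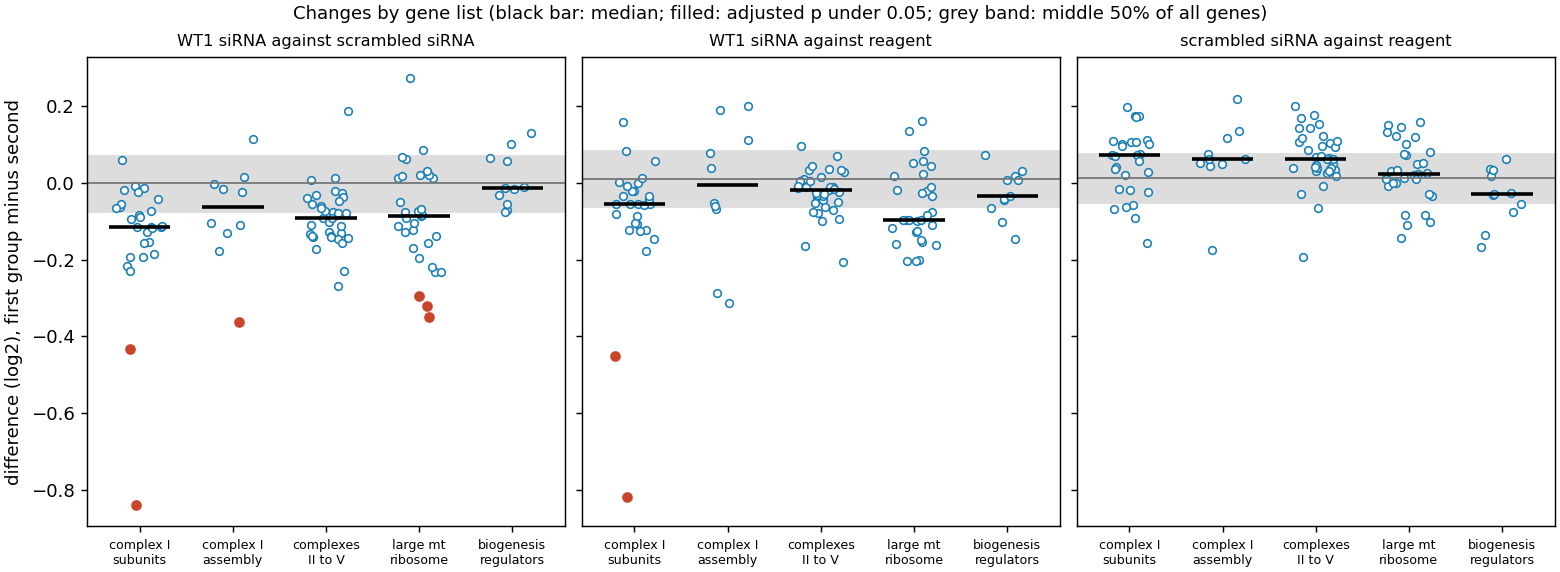
Changes on the log2 scale of the 28 complex I subunits and of 4 other mitochondrial gene lists in the 3 comparisons; a point is a gene, black bars are list medians, filled points have an adjusted p under 0.05, and the grey line and band are the median and the middle 50% of all genes. NDUFA1 and NDUFB5 lie below every other point shown in both comparisons of WT1 siRNA.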

How the data were processed

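Per the submitters' processing notes, the authors processed the arrays with RMA, so each deposited value is the log2 expression of a probe set, background corrected and normalised between arrays. The sources used here do not give the software version, chip definition or genome build. With 62 control probe sets removed, 22215 were tested. Symbols came from GEO's platform annotation, in which 19064 probe sets had 1 symbol, 1043 several and 2108 none, and a check by gene ID changed 0.

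The deposited log2 values were not transformed. limma 3.58.1 in R 4.3.3 fitted all 9 arrays with a mean per group and the replicate number as a fixed block. P-values were two-sided and adjusted after Benjamini and Hochberg over all probe sets, and an adjusted p under 0.05 was called. Percentages of all genes count 1 probe set per gene, the one with the highest mean. Deviations from group means correlated at 0.647 to 0.849 in the 9 pairs of arrays with the same number, so the numbers were taken to pair the cultures. Other pairs lay at -0.611 to -0.0311. Deviations cancel out within a group, which forces negative values there, so that range is no separate evidence. The choice was made on the same data. Alternatives were no block, a random block, each array or number left out, other scalings, a filter at a log2 mean of 6, other choices of probe set, a trended and robust variance, and adjustment over genes.

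Values on every array are given for each member called in a group comparison and for the 3 with the smallest p in each; NDUFV2, NDUFS1 and NDUFA5 were added after their values were seen. Members and lists were chosen with earlier results of these data known. The labels call the cultures biological triplicates, and the number of arrays limits the precision. The code of the fit was run on simulated data with independent noise and changes larger than those of most subunits. That run does not bear on changes as small as most reported here. Figures were drawn with matplotlib 3.10.9.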

Additional observations from a re-analysis of the deposited data

How the results depend on the processing

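With the replicate block removed, 0 of 28 subunits were called against scrambled siRNA and 0 against reagent, in place of 2 and 2. With only the 2 compared groups in the fit, block kept, the counts were 1 and 0. With a random block 1 was called against reagent, and with a trended, robust variance 4 were called against scrambled siRNA (NDUFA1, NDUFB5, NDUFC1 and NDUFV2). Leaving out single arrays or all arrays of a number gave 0 to 2 calls in both comparisons. Scrambled siRNA against reagent had 0 calls in all 22 alternatives. NDUFA1 passed in 19 of 22 alternatives against scrambled siRNA and 18 of 22 against reagent, and NDUFB5 in 14 and 9; neither changed direction. The median change of -0.11 against scrambled siRNA became -0.087 with quantile normalisation and -0.092 both with the mean over all probe sets of a gene and with the dimmest probe set, and lay between -0.13 and -0.09 over 19 alternatives. The median against reagent lay between -0.0916 and -0.0135, and was -0.08 with each array centred. Between number 1 and the others, leaving out arrays gave 2 to 9 calls in place of 7. Between numbers 2 and 3 it gave 3 to 11 in place of 10, and centring each array on its median gave 6. The causes were not tested.

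With 3 cultures a group, the intervals of the uncalled subunits still include changes from -0.38 to 0.25 against scrambled siRNA. They include changes from -0.33 to 0.32 against reagent, and from -0.32 to 0.38 for scrambled siRNA against reagent. Probe sets shared between genes and the 6 unmeasured subunits limit the list, and signal brightness gives no comparison of RNA amounts between probe sets.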
